A study of Sus scrofa with 7 samples.

Results

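The genes described here encode enzymes that modify and clear foreign and endogenous small molecules in pig stem cell lines: the cytochromes P450 (CYP), UDP-glucuronosyltransferases (UGT), glutathione S-transferases (GST), sulfotransferases (SULT), aldo-keto reductases of family 1 (AKR1), the epoxide hydrolases EPHX1 and EPHX2, the P450 reductase POR and the quinone reductase NQO1. They were chosen by gene symbol, leaving out CYP26A and CYP51 genes, with earlier results of these data known. This gave 53 rows with 51 distinct symbols among the 29510 genes listed. By family the rows were 12 CYP genes of families 1 to 3, 14 CYP genes of other families, 6 GST, 2 UGT, 8 SULT and 7 AKR1 genes, and the 4 genes POR, EPHX1, EPHX2 and NQO1. None of the 12 was of CYP family 3.

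These enzymes are usually described in successive steps. CYP enzymes, which draw electrons from POR, add oxygen to a substrate, hydrolases and reductases act on the products, and transferases then attach glutathione, glucuronic acid or sulfate so that transporters can export the conjugate. The system is best known from the liver, and the extra-embryonic endoderm of the yolk sac is known to carry out some liver-like functions in the early embryo. Several CYP and SULT enzymes have mainly endogenous substrates, such as sterols, steroid hormones, vitamin D, retinoic acid and fatty acids.

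Total RNA depleted of ribosomal RNA was sequenced from 7 pig cell lines, with 1 library for each line. The 3 porcine extra-embryonic endoderm (pXEN) lines, at passages 26, 26 and 23, came from inner cell masses of parthenogenetic blastocysts and grew on mouse embryonic fibroblast feeders in LCDM medium, which holds LIF, CHIR99021, dimethindene, minocycline and Y27632 with serum. The 2 naïve-like embryonic stem cell (nESC) lines, at passages 21 and 22, grew on the same kind of feeder with FGF, LIF, PD0325901, CHIR99021, SB431542 and doxycycline. The 2 primed embryonic stem cell (pESC) lines, both at passage 20 and, per the labels, converted from naïve-like ESCs, grew on STO mouse cells with activin A, bFGF, EGF and LIF. Cell type, medium and passage changed together in each comparison, and feeder changed with them between pESC and the other lines, so their parts in a difference cannot be told apart.

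Libraries held 10408164 to 12995720 counts. FPKM, the length-scaled level used here, was summed over markers. For 9 extra-embryonic endoderm markers the sum was 2612 to 3135 in pXEN, 14.5 to 14.9 in nESC and 144 to 149 in pESC lines, with SOX7 at 3 counts or fewer in each library. For SOX2 the ESC lines held 1633 to 2729 counts, while the pXEN lines held 0, 30 and 0. The sum over 8 pluripotency markers was 195 to 311 FPKM in pXEN, 297 and 300 in nESC and 625 and 647 in pESC lines, so it did not separate pXEN from nESC lines. Several of these markers did not follow the labels: ZIC2 had 134 to 250 FPKM in pXEN lines against 44.9 to 70.2 in ESC lines, ESRRB had 26 and 17 counts in nESC against 840 and 923 in pESC lines, POU5F1 was listed at 5 counts or fewer in each library, and NANOG had 60 to 177 counts in pXEN lines against 0 to 22 in ESC lines. Summed FPKM of the trophoblast list was 0.467 to 5.01 and of the kidney tubule list at most 0.0446. The intestine list reached 18.8 to 29.4 in pXEN lines, nearly all of it VIL1, and at most 0.358 in the ESC lines. Line 2 of the pXEN cells stood apart: its summed FPKM was 248 for the fibroblast list, against 18.1 and 21.1 in lines 1 and 3, and 3272 for the hepatocyte and visceral endoderm list, against 978 and 844. SERPINA1 supplied most of the latter sum in each pXEN line, with 2633 FPKM in line 2 against 677 and 565, and FGB was not highest in line 2. The fibroblast list was also higher in pESC lines, at 49.5 and 76.9, than in nESC lines, at 7.83 and 9.64. The genes behind it differed: COL1A1 and COL3A1 led in pXEN line 2, at 144 and 77.5 FPKM. DCN and COL1A2 led in pESC lines, where COL3A1 had at most 0.451 FPKM. The part of such transcripts in the values of pESC lines was not tested. Line 2 also had 38 counts on chromosome Y, against 1 and 3.

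Over the 53 rows, the enzyme genes made up 0.187% to 0.273% of the summed FPKM of a library, and the glutathione transferase GSTP1 alone supplied 62.3% to 66.8% of that. Summed FPKM of the 53 rows was 1303, 1690 and 1248 in pXEN lines 1, 2 and 3, 1277 and 1086 in the nESC lines and 1452 and 1617 in the pESC lines. The pXEN range overlapped those of both ESC types. The 4 genes POR, EPHX1, EPHX2 and NQO1 summed to 88.5 to 117 FPKM in pXEN, 30.7 to 35.5 in nESC and 119 to 136 in pESC lines, so the nESC lines lay below the others without overlap. SULT genes summed to 1.84 to 2.87 FPKM in pXEN, 0.356 to 0.422 in nESC and 10.4 to 15.8 in pESC lines. CYP genes of families 1 to 3 summed to 13.4 to 14.0 FPKM in pXEN, 11.9 to 14.8 in nESC and 16.0 to 18.2 in pESC lines. The other CYP genes summed to 6.29 to 9.30 FPKM in pXEN, 16.3 in both nESC and 10.4 and 16.2 in pESC lines, so the pXEN lines lay below the ESC lines without overlap.

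**Figure D1:**
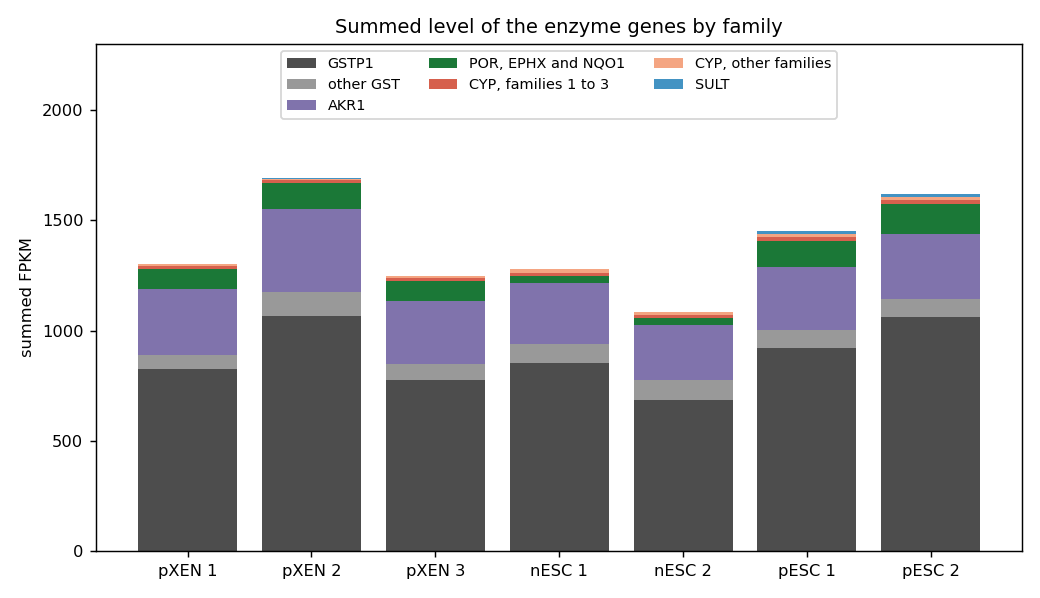
Summed FPKM of the enzyme genes in each of the 7 libraries (bars), stacked by family with GSTP1 drawn apart from the other GST genes. GSTP1 fills 62.3% to 66.8% of each bar, and the segment of POR, EPHX and NQO1 is thinnest in the 2 nESC libraries, at 30.7 to 35.5 FPKM.

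Many of the rows gave few or no reads, genes well known from adult liver among them. CYP2E1, SULT1B1, SULT1C3, SULT2A1, SULT6B1 and UGT1A8 were listed at 0 counts in each of the 7 libraries. A further 8 rows never passed 3 counts: CYP2D6, the bile acid enzyme CYP7A1, the steroid side-chain enzyme CYP11A1, SULT1C2, SULT2B1, UGT2A3 and both rows of AKR1C3. The other untested rows were CYP1A1, CYP1A2, CYP2A6, CYP2F1, CYP2W1, CYP4F22, CYP4X1, CYP24A1, CYP26B1, GSTM3, AKR1D1 and 1 of the 2 rows of AKR1E2, with highest counts between 4 and 15. These rows were left out of the edgeR fit, and a row listed at 0 may also reflect its gene model. Without the filter, edgeR called CYP4F22 lower in pXEN than in pESC lines (adjusted p = 0.0330), and limma on log2(FPKM + 0.1) called 5 of these rows in at least 1 comparison, CYP1A1, CYP2W1, CYP4F22, SULT1C2 and SULT2B1, which had at most 3 to 11 counts in a library. In all, 27 of the 53 rows passed the filter on low counts.

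Per length of transcript, the order of levels was led by the same gene in each cell type. GSTP1 had the highest mean FPKM, followed by AKR1A1 and AKR1B1 in pXEN, by AKR1B1 and AKR1A1 in nESC and by AKR1B1 and NQO1 in pESC lines. A mean of 10 FPKM or more was reached by 7 enzyme genes in pXEN, 6 in nESC and 10 in pESC lines. No CYP gene of the set reached that level, the highest CYP mean being 9.69 FPKM for CYP2R1 in pESC lines.

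**Figure D2:**
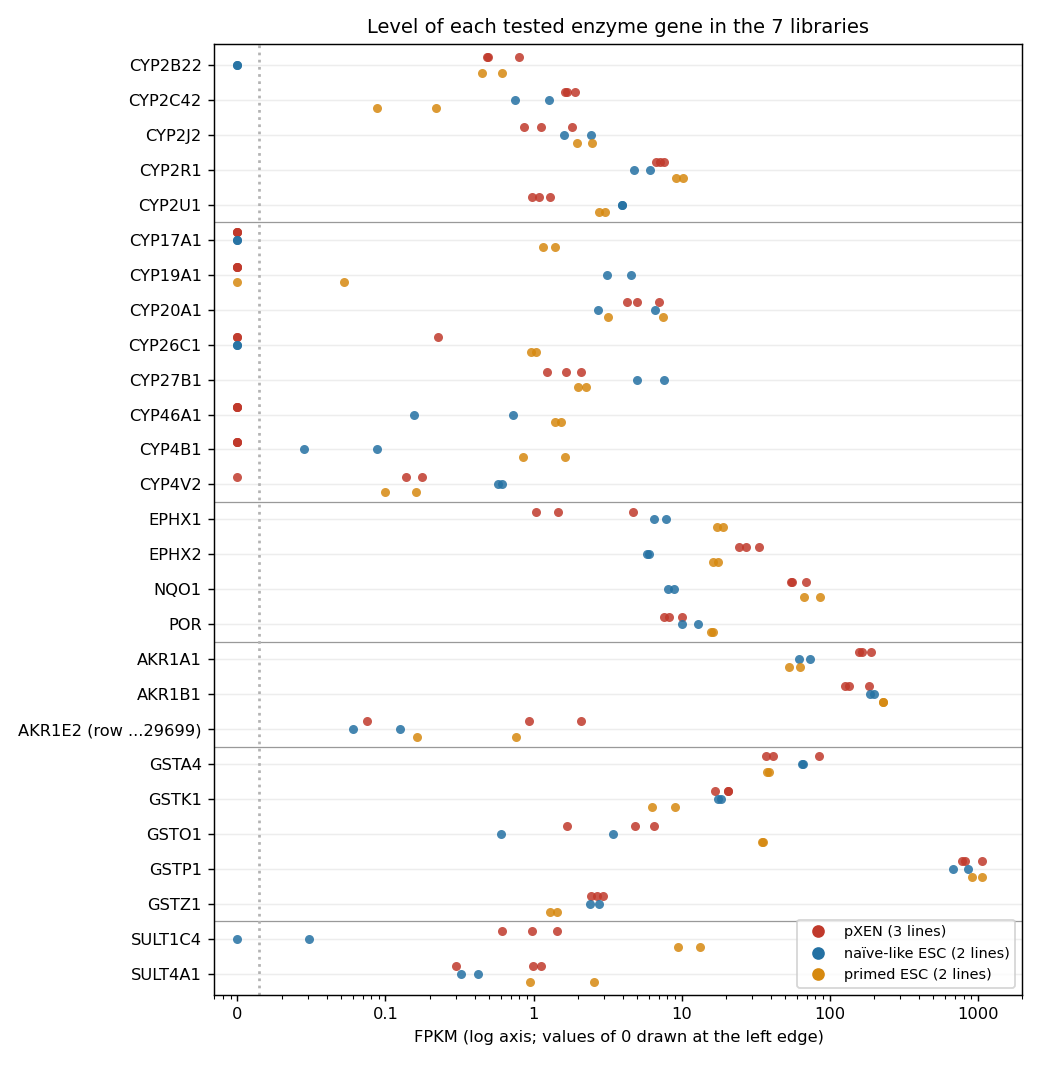
FPKM of the 27 tested rows in each library on a log axis, with 1 point for each line, coloured by cell type and grouped by family; values of 0 sit left of the dotted line. GSTP1, AKR1A1 and AKR1B1 lie above 50 FPKM in each library, and the CYP genes lie below 11 FPKM.

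Differences between cell types were tested with edgeR's quasi-likelihood test in 1 model of the 7 libraries, and a gene was called at a Benjamini-Hochberg adjusted p below 0.05 over the 17447 genes tested. Between pXEN and nESC lines 11 of the 27 tested rows were called (40.7%), 5 higher and 6 lower in pXEN, where 54.5% of all genes tested were called, 28.3% higher and 26.2% lower. Between pXEN and pESC lines 16 rows were called (59.3%), 5 higher and 11 lower in pXEN, against 48.3% of all genes, 23.9% higher and 24.4% lower. Between pESC and nESC lines 14 rows were called (51.9%), 9 higher and 5 lower in pESC, against 32.2% of all genes, 19.0% higher and 13.3% lower. The median log2 fold change of the tested rows was 0.09, -0.43 and 0.47 in the 3 comparisons, and that of all genes was 0, -0.01 and 0.01. Genes read in only 1 cell type passed the filter through that type, so these counts describe the tested rows and not the 53. Each cell type enters 2 of the comparisons, which are therefore not independent of each other. In bulk RNA, fewer cells carrying a transcript and less of it per cell cannot be told apart.

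**Figure D3:**
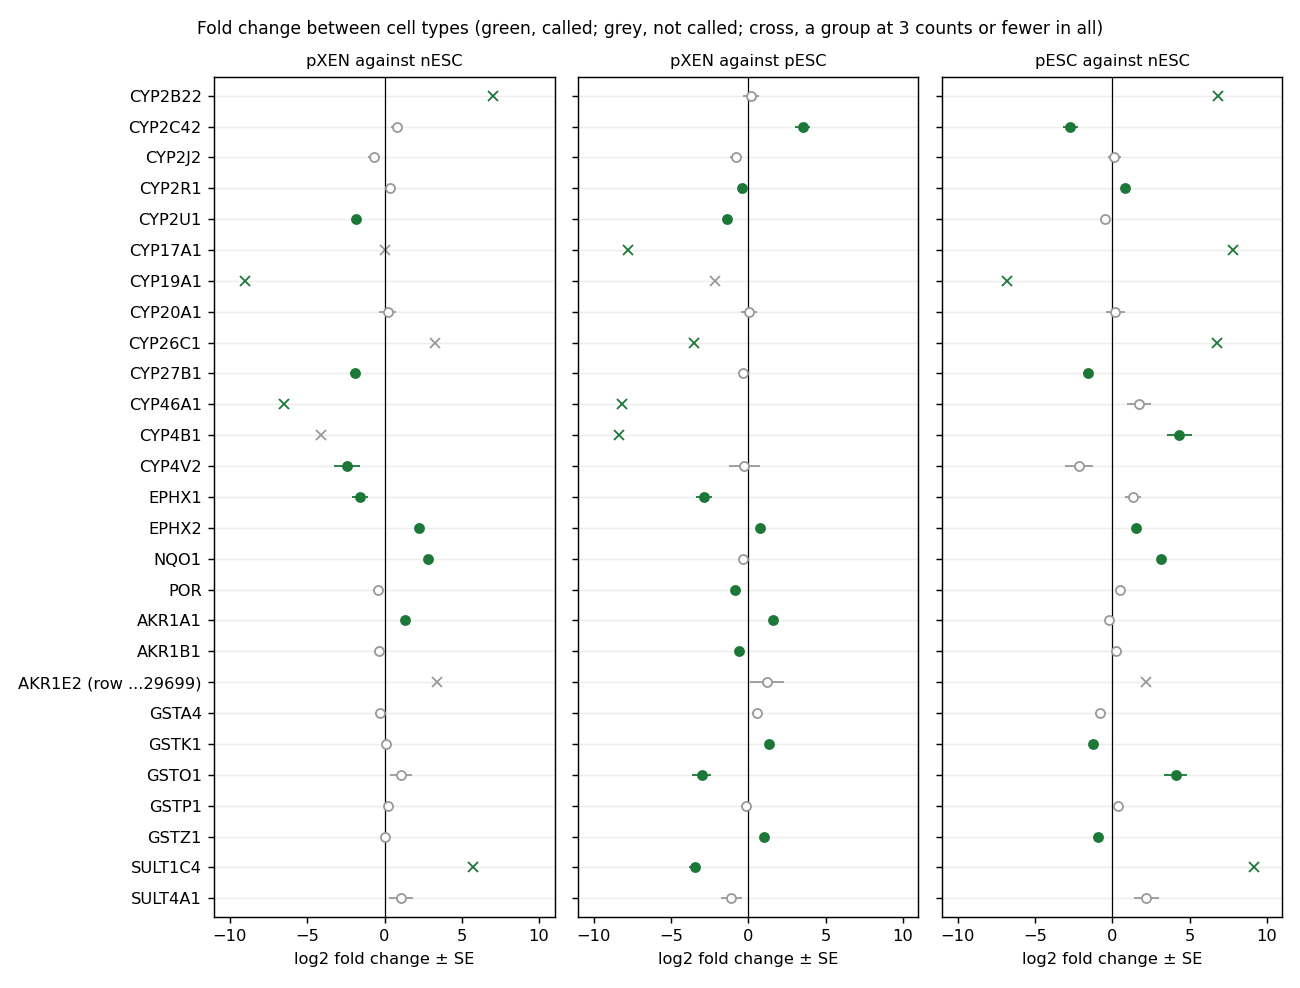
Log2 fold change ± SE of the 27 tested rows in the 3 comparisons, with positive values higher in the type named first; green marks called genes, grey those not called, and crosses, drawn without SE, comparisons in which a cell type had 3 counts or fewer in all. EPHX2 is called to the right of 0 in each panel, and the 11 genes called lower in pXEN than in pESC lines include CYP2R1, CYP2U1 and 4 CYP genes outside families 1 to 3.

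Leaving out pXEN line 2 gave 15 called rows against nESC lines and 17 against pESC lines, and raised the rows called higher in pESC than in nESC lines from 9 to 14. In the same fits the share of all genes called rose as well, to 60% and 55.4% for pXEN against nESC and pESC lines, and to 24.4% for genes higher in pESC than in nESC lines. Across the 3 comparisons, 41 calls were made on members, and 28 of them held under each of the alternatives run.

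CYP families 1 to 3 include the main drug-metabolizing P450s, but none of the rows chosen by symbol was of family 3. Rows without a symbol described as cytochrome P450 3A28 and 3A29 had 0 counts in each library. Among the rows of this group with a symbol, CYP2R1 had the highest level. CYP2R1, a vitamin D hydroxylase on chromosome 2 (47674500 to 47695270, build Sscrofa10.2, as for the positions that follow), had 7.16, 7.54 and 6.75 FPKM in pXEN lines 1, 2 and 3, 4.77 and 6.16 in the nESC lines and 10.17 and 9.20 in the pESC lines. The 3 types did not overlap, with pESC lines highest. The pESC lines were higher than nESC lines (log2 fold change 0.81 ± 0.17 SE, adjusted p = 0.00772), a call lost without nESC line 1 (adjusted p = 0.0575) or pESC line 1 (adjusted p = 0.0617). Against pESC lines, pXEN lines were lower by a log2 fold change of -0.43 ± 0.15 (adjusted p = 0.0433), which was lost in 9 of the alternatives, leaving out pXEN line 1 or 3 or either pESC line among them (adjusted p = 0.0975 to 0.224). Against nESC lines CYP2R1 was not called, except when nESC line 2 was left out (adjusted p = 0.0353).

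CYP2C42 and CYP2B22 were the genes of this group that were higher in pXEN than in an ESC type. CYP2C42, a pig member of the CYP2C subfamily on chromosome 14 (116299374 to 116337991), had 1.63, 1.91 and 1.67 FPKM in pXEN lines, 0.750 and 1.27 in nESC lines and 0.219 and 0.0880 in pESC lines. It was higher in pXEN than in pESC lines (log2 fold change 3.50 ± 0.47, adjusted p = 0.000565) and lower in pESC than in nESC lines (-2.72 ± 0.48, adjusted p = 0.00425). CYP2B22, of the drug-inducible CYP2B subfamily on chromosome 6 (44929854 to 44978800), had 11, 13 and 20 counts in pXEN lines, 0 and 0 in nESC lines and 13 and 19 in pESC lines. Set against a floor of 3 counts per library, it was at least 5.35-fold higher in pXEN and at least 4.80-fold higher in pESC than in nESC lines (adjusted p = 0.00141 and 0.00410). All of these levels were below 2 FPKM.

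CYP2U1, a fatty acid hydroxylase on chromosome 8 (122279354 to 122295774), went the other way, with 0.980, 1.28 and 1.08 FPKM in pXEN lines, 3.98 and 3.98 in nESC lines and 3.01 and 2.78 in pESC lines. The pXEN lines lay below both ESC types without overlap, and CYP2U1 was called lower against nESC lines (log2 fold change -1.83 ± 0.28, adjusted p = 0.000950) and pESC lines (-1.36 ± 0.28, adjusted p = 0.00523). The fatty acid epoxygenase CYP2J2, at 0.861 to 2.49 FPKM, was called in none of the comparisons.

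The CYP genes outside families 1 to 3 act mostly on endogenous lipids, and 8 of the 14 were tested. Of these, CYP17A1, CYP19A1, CYP26C1, CYP46A1, CYP4B1 and CYP4V2 had 3 counts or fewer in each pXEN line and passed the filter through ESC libraries. Between pXEN and nESC lines 4 were lower in pXEN, where 26.2% of all genes were, and between pXEN and pESC lines 4 were lower, where 24.4% were. Between pESC and nESC lines 3 were higher and 2 lower in pESC, against 19.0% and 13.3% of all genes. For rows that passed through 1 cell type, these counts follow in part from the filter. Each was below 8 FPKM in each library.

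Aromatase and a steroid hydroxylase were read in different ESC types. CYP19A1, the aromatase that makes estrogens, on chromosome 1 (133903979 to 133936093), had 0 counts in each pXEN line, 78 and 52 in the nESC lines and 0 and 1 in the pESC lines. It was at least 19.5-fold higher in nESC than in pXEN lines (adjusted p = 0.000516) and, as a ratio with its 95% counting interval, 144-fold (25.4 to 5723) higher in nESC than in pESC lines (adjusted p = 0.00279). CYP17A1, which acts on the path from progestogens to androgens, on chromosome 14 (123773105 to 123779533), had 0 counts in each pXEN and nESC line and 27 and 35 in the pESC lines. It was at least 8.43-fold higher in pESC than in pXEN lines (adjusted p = 0.00282) and at least 9.31-fold higher than in nESC lines (adjusted p = 0.00780), the latter call lost without pESC line 1 (adjusted p = 0.0653) or line 2 (adjusted p = 0.0780). Pigs are known to carry several closely related aromatase genes, and the table describes a single row as aromatase, so reads of the copies could not be separated.

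CYP46A1 and CYP4B1 had 0 counts in the pXEN lines and their highest counts in pESC lines. CYP46A1, a cholesterol hydroxylase best known from neurons, on chromosome 7 (128268853 to 128302588), had 4 and 18 counts in nESC lines and 41 and 40 in pESC lines, and was at least 3.37-fold and at least 11.1-fold higher there than in pXEN lines (adjusted p = 0.00944 and 0.00273). CYP4B1, a fatty acid hydroxylase on chromosome 6 (152209605 to 152229959), had 1 and 3 counts in nESC lines and 31 and 64 in pESC lines. It was at least 12.8-fold higher in pESC than in pXEN lines (adjusted p = 0.00126). In pESC against nESC lines the log2 fold change of CYP4B1 was 4.32 ± 0.80 (adjusted p = 0.0101), lost without nESC line 1 (adjusted p = 0.0787) or pESC line 2 (adjusted p = 0.105).

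**Figure D4:**
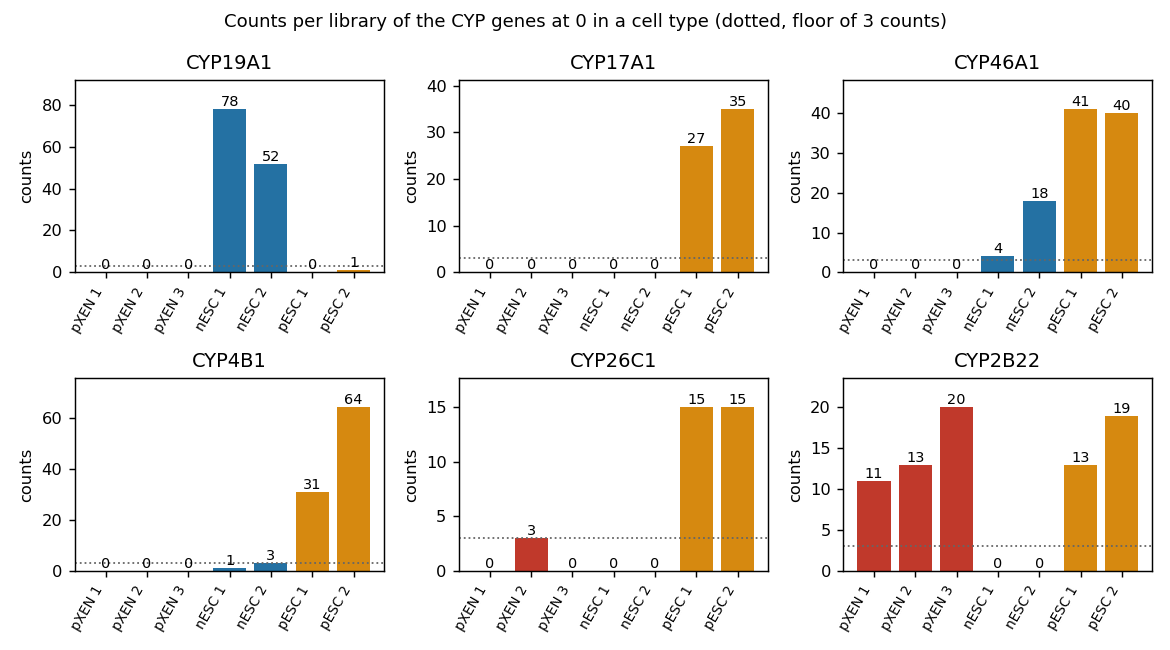
Counts of 6 CYP genes in each library (bars, with the count printed above and the floor of 3 counts dotted), coloured by cell type. CYP19A1 is read in the 2 nESC libraries, at 78 and 52 counts, CYP17A1 and CYP4B1 mainly in the 2 pESC libraries, and CYP2B22 in pXEN and pESC but not nESC libraries.

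CYP27B1 and CYP26C1 act on vitamin D and retinoic acid, while CYP24A1 and CYP26B1, which clear these compounds, were not tested. CYP27B1, which makes the active form of vitamin D, lies on an unplaced scaffold and had 2.08, 1.23 and 1.66 FPKM in pXEN lines, 7.62 and 5.03 in nESC lines and 1.98 and 2.26 in pESC lines. The nESC lines stood above the other 5 libraries. It was lower in pXEN than in nESC lines (log2 fold change -1.94 ± 0.31, adjusted p = 0.00109) and lower in pESC than in nESC lines (-1.58 ± 0.34, adjusted p = 0.00999), the latter lost without nESC line 1, pESC line 1 or pESC line 2 (adjusted p = 0.0795, 0.0777 and 0.0572). CYP26C1, which clears retinoic acid, on chromosome 14 (114191013 to 114197385), had 0, 3 and 0 counts in pXEN lines, 0 and 0 in nESC lines and 15 and 15 in pESC lines. Its 2 calls (adjusted p = 0.0278 against pXEN and 0.0226 against nESC lines) rested on 30 counts and were lost when either pESC line was left out (adjusted p = 0.109 to 0.146), the first also without pXEN line 1 or 3 (adjusted p = 0.0643 and 0.0611) and the second without nESC line 1 or 2 (adjusted p = 0.120 and 0.106).

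CYP4V2, a fatty acid hydroxylase on chromosome 15 (53758512 to 53771282), had 2, 3 and 0 counts in pXEN lines, 11 and 10 in nESC lines and 3 and 2 in pESC lines. Its log2 fold change in pXEN against nESC lines was -2.44 ± 0.83 (adjusted p = 0.0377), and leaving out any library other than pXEN line 2 gave an adjusted p of 0.0557 to 0.165. CYP20A1, whose substrate is not known, was at 2.72 to 7.52 FPKM and was called in no comparison.

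Among the partner enzymes of the P450s, EPHX2 and NQO1 were higher in pXEN than in nESC lines. EPHX2, the soluble epoxide hydrolase that hydrolyses fatty acid epoxides, on chromosome 14 (12397750 to 12473597), had 27.3, 33.2 and 24.5 FPKM in pXEN lines, 5.86 and 6.04 in nESC lines and 17.6 and 16.3 in pESC lines. The 3 types did not overlap, with means of 28.3 ± 4.46 (SD, n = 3), 5.95 ± 0.129 (SD, n = 2) and 17.0 ± 0.867 (SD, n = 2). EPHX2 was the one tested row called higher in pXEN than in both ESC types and in pESC than in nESC lines. The log2 fold change was 2.25 ± 0.17 against nESC lines (adjusted p = 2.28e-05) and 0.75 ± 0.16 against pESC lines (adjusted p = 0.00529, and 0.0573 without pESC line 2). In pESC against nESC lines it was 1.497 ± 0.178 (adjusted p = 0.000680).

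NQO1, a quinone reductase, on chromosome 6 (16238853 to 16248810), had 55.7, 69.3 and 55.0 FPKM in pXEN lines, 8.90 and 8.08 in nESC lines and 67.1 and 85.6 in pESC lines. The nESC lines were far below both other types, whose ranges overlapped. NQO1 was higher than in nESC lines by a log2 fold change of 2.82 ± 0.18 in pXEN (adjusted p = 9.72e-06) and 3.15 ± 0.19 in pESC lines (adjusted p = 2.93e-05). Between pXEN and pESC lines it was -0.34 ± 0.15 (adjusted p = 0.105), and it was called lower in pXEN without line 2 (-0.46, adjusted p = 0.0132), with upper-quartile scaling (adjusted p = 0.0409) and with scaling by library totals (adjusted p = 0.0138).

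**Figure D5:**
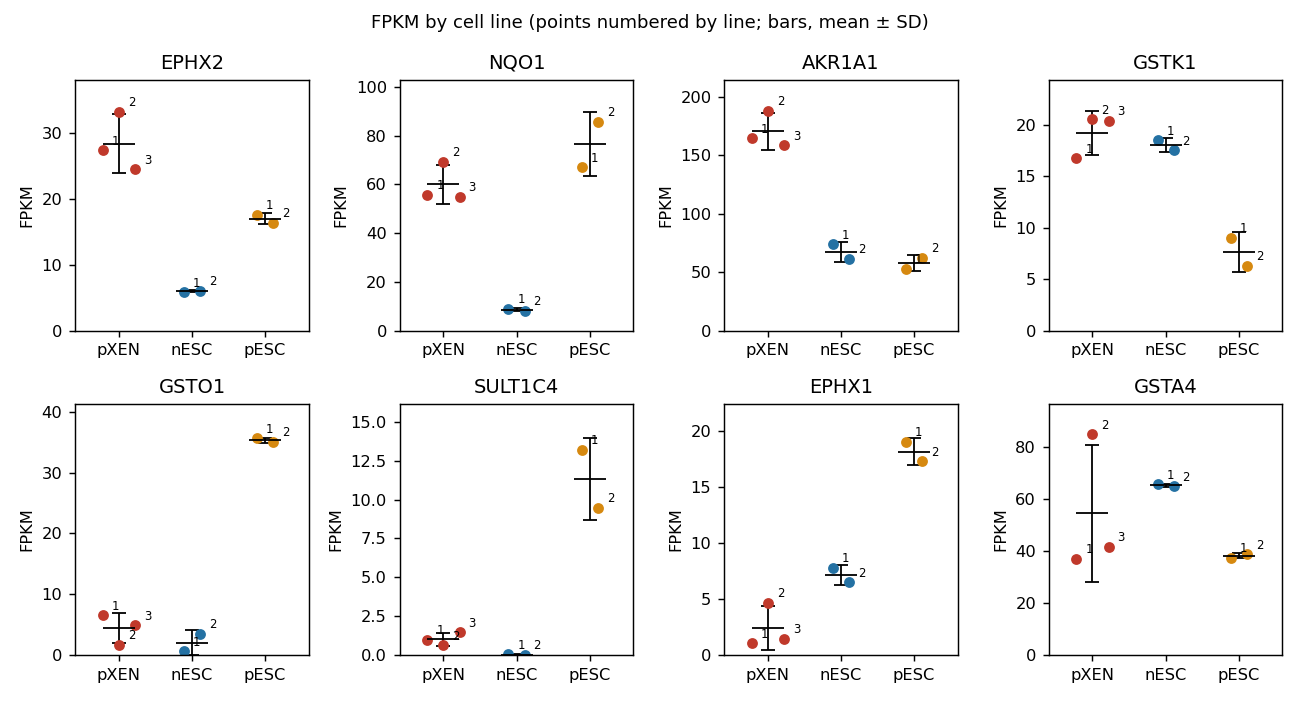
FPKM of 8 enzyme genes by cell type, with 1 point for each line, numbered by line, and the mean ± SD as bars; each panel has its own axis from 0. EPHX2 and AKR1A1 are highest in the 3 pXEN lines, GSTO1 and SULT1C4 in the 2 pESC lines, and GSTA4 and EPHX1 show pXEN line 2 above the other pXEN lines.

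POR, the reductase that passes electrons to microsomal P450s, lies on an unplaced scaffold and had 8.26, 10.1 and 7.61 FPKM in pXEN lines, 12.95 and 10.06 in nESC lines and 15.7 and 16.4 in pESC lines. It was lower in pXEN than in pESC lines (log2 fold change -0.88 ± 0.18, adjusted p = 0.00507). Against nESC lines, where pXEN line 2 and nESC line 2 were within 0.1 FPKM of each other, the log2 fold change was -0.41 ± 0.19 (adjusted p = 0.0929). Without pXEN line 2 this became -0.54 (adjusted p = 0.0224), and POR was then also called higher in pESC than in nESC lines (adjusted p = 0.0464).

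EPHX1, the microsomal epoxide hydrolase, on chromosome 10 (16016584 to 16034770), had 1.05, 4.68 and 1.46 FPKM in pXEN lines, 7.78 and 6.51 in nESC lines and 19.0 and 17.3 in pESC lines. The 3 types did not overlap, with pXEN lines lowest. EPHX1 was lower in pXEN than in pESC lines (log2 fold change -2.89 ± 0.51, adjusted p = 0.00236). Against nESC lines the log2 fold change was -1.56 ± 0.52 (adjusted p = 0.0336), and -2.51 without pXEN line 2 (adjusted p = 2.90e-05). Leaving out any other library gave an adjusted p of 0.0608 to 0.139 for that comparison. The pESC lines were called higher than the nESC lines once pXEN line 2 was left out (1.33, adjusted p = 0.000657) or once pXEN lines were not fitted (adjusted p = 0.000735). EPHX1 overlaps TMEM63A on the opposite strand, which had 3, 20 and 4 counts in pXEN lines, 155 and 220 in nESC lines and 393 and 387 in pESC lines. The strand setting used in counting is not stated, so reads of this pair cannot be told apart, and the part of TMEM63A in the EPHX1 values was not tested.

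The aldo-keto reductases AKR1A1 and AKR1B1 lay above 50 FPKM in each library. AKR1A1, the aldehyde reductase, lies on an unplaced scaffold and had 165, 188 and 159 FPKM in pXEN lines, 73.8 and 61.7 in nESC lines and 53.0 and 62.6 in pESC lines. The pXEN lines were above each ESC line, while the 2 ESC types overlapped. It was higher in pXEN by a log2 fold change of 1.33 ± 0.14 against nESC lines (adjusted p = 0.000134) and 1.57 ± 0.14 against pESC lines (adjusted p = 8.67e-05).

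AKR1B1, the aldose reductase of the polyol pathway, on chromosome 18 (15596721 to 15615030), had 135, 184 and 127 FPKM in pXEN lines, 198 and 188 in nESC lines and 231 and 230 in pESC lines. The pXEN lines lay below both ESC types, line 2 by the least. Against pESC lines AKR1B1 was lower in pXEN (log2 fold change -0.62 ± 0.16, adjusted p = 0.0132), a call lost without either pESC line (adjusted p = 0.0706 and 0.0719). Against nESC lines it was -0.39 ± 0.16 (adjusted p = 0.0749), and without pXEN line 2 it was -0.57 (adjusted p = 0.000304). Without that line, AKR1B1 was also called higher in pESC than in nESC lines (0.24, adjusted p = 0.0350), as it was when pXEN lines were not fitted (adjusted p = 0.0377).

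AKR1E2, a reductase of an anhydro sugar, is listed in 2 rows of equal length on chromosome 10, and the counts could be split between them. The row that was tested (72108981 to 72122113) had 1, 33 and 14 counts in pXEN lines, 1 and 2 in nESC lines and 13 and 3 in pESC lines, and was not called (pXEN against nESC, adjusted p = 0.0678). It was called higher in pXEN than in nESC lines by DESeq2 (adjusted p = 0.0456) and without pXEN line 1 (adjusted p = 0.0159). The other row had 15, 5 and 9 counts in pXEN lines, 4 and 8 in nESC lines and 9 and 5 in pESC lines. With both rows summed, a choice made after seeing the data, AKR1E2 was higher in pXEN than in nESC lines (log2 fold change 1.87, adjusted p = 0.0429). The AKR1C3 rows were at 3 counts or fewer in each library.

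GST genes attach glutathione to reactive compounds. None of the 5 tested was called in pXEN against nESC lines, where 54.5% of all genes tested were. Without pXEN line 2, GSTA4 and GSTO1 were called in that comparison, as given below. GSTP1, on chromosome 2 (3618668 to 3620934), had 824, 1065 and 778 FPKM in pXEN lines, 853 and 685 in nESC lines and 919 and 1063 in pESC lines. The ranges of pXEN and both ESC types overlapped, and GSTP1 was not called in any comparison, with log2 fold changes of 0.20 ± 0.17, -0.15 ± 0.17 and 0.35 ± 0.18. Without pXEN line 2 it was called higher in pESC than in nESC lines (adjusted p = 0.0376).

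GSTK1, a transferase of mitochondria and peroxisomes, and GSTZ1, which isomerizes an intermediate of tyrosine breakdown, were lowest in pESC lines. GSTK1, on chromosome 18 (7234190 to 7239985), had 16.7, 20.5 and 20.4 FPKM in pXEN lines, 18.5 and 17.5 in nESC lines and 9.01 and 6.28 in pESC lines. It was higher in pXEN than in pESC lines (log2 fold change 1.34 ± 0.20, adjusted p = 0.00107) and lower in pESC than in nESC lines (-1.25 ± 0.22, adjusted p = 0.00381), while pXEN and nESC lines overlapped. GSTZ1, on chromosome 7 (106553043 to 106564932), had 2.67, 2.46 and 2.93 FPKM in pXEN lines, 2.77 and 2.39 in nESC lines and 1.45 and 1.28 in pESC lines. Its log2 fold changes were 0.98 ± 0.24 for pXEN against pESC lines (adjusted p = 0.0115) and -0.93 ± 0.26 for pESC against nESC lines (adjusted p = 0.0288). The first was lost without pESC line 1 or 2 (adjusted p = 0.0531 and 0.0873), and the second without any one of the nESC or pESC lines (adjusted p = 0.0644 to 0.154).

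GSTO1, an omega-class transferase that also reduces dehydroascorbate, on chromosome 14 (125175435 to 125185836), was highest in pESC lines, with 6.53, 1.68 and 4.85 FPKM in pXEN lines, 0.606 and 3.46 in nESC lines and 35.6 and 35.1 in pESC lines. The pESC lines were above the other 5 libraries, and pXEN and nESC lines overlapped. The log2 fold change was -3.02 ± 0.60 for pXEN against pESC lines (adjusted p = 0.00401) and 4.11 ± 0.74 for pESC against nESC lines (adjusted p = 0.00470). Against nESC lines GSTO1 was called higher in pXEN without pXEN line 2 (1.48, adjusted p = 0.0405) or without nESC line 2 (2.81, adjusted p = 0.0367), and not with each library kept (1.08, adjusted p = 0.225).

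GSTA4, which acts on aldehydes from lipid peroxidation, on chromosome 7 (134379974 to 134400509), had 37.0, 84.9 and 41.6 FPKM in pXEN lines, 65.8 and 64.9 in nESC lines and 37.5 and 38.9 in pESC lines. Line 2 was above, and lines 1 and 3 below, both nESC lines. GSTA4 was not called in any comparison (adjusted p = 0.132 to 0.520). Without pXEN line 2 it was lower than in nESC lines both in pXEN (log2 fold change -0.74, adjusted p = 0.000295) and in pESC lines (-0.79, adjusted p = 0.000389), the latter also when pXEN lines were not fitted (adjusted p = 0.000735).

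Of the 2 UGT and 8 SULT genes, which attach glucuronic acid and sulfate, only SULT1C4 and SULT4A1 were tested. SULT1C4, a sulfotransferase of phenolic compounds on chromosome 3 (49934277 to 49946446), had 26, 19 and 43 counts in pXEN lines, 1 and 0 in nESC lines and 450 and 345 in pESC lines, which is 0.612 to 1.45, 0 to 0.0306 and 9.49 to 13.2 FPKM. The 3 types did not overlap, in the order pESC, pXEN and nESC. Ratios with their 95% counting intervals were 64.6 (11.3 to 2579) for pXEN over nESC lines and 719 (129 to 28420) for pESC over nESC lines (adjusted p = 0.000550 and 8.66e-05). Against pESC lines, SULT1C4 was lower in pXEN by a log2 fold change of -3.48 ± 0.37 (adjusted p = 0.000184). Its neighbours on chromosome 3, SULT1C2 and SULT1C3, were at 3 counts or fewer in each library. SULT4A1, a sulfotransferase known from brain, was at 0.300 to 2.58 FPKM and was not called, while in pESC over nESC lines it was called without pXEN line 2 (adjusted p = 0.0462) and when only those types were fitted (adjusted p = 0.0374).

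The 3 pXEN lines differed among themselves in part of the set. Among the 20 tested rows with a mean of at least 10 counts in the pXEN lines, the median ratio of the highest to the lowest line was 1.41, against 1.37 over 15027 genes. The ratio passed 2 in 6 of the 20 (30%), against 18.0% of all genes, and line 2 was highest in 13 (65%), against 42.6%. Of the 6, EPHX1, GSTA4 and the tested row of AKR1E2 were highest in line 2, GSTO1 and SULT1C4 were lowest there, and CYP2J2 was highest in line 1. The part of the fibroblast, hepatocyte and visceral endoderm transcripts of line 2 in these values was not tested.

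The wider pathway was described with lists of other genes, 1 of which also holds SULT1C4. The counts of these lists stand against 28.3% of all genes tested higher and 26.2% lower in pXEN than in nESC lines, and 23.9% higher and 24.4% lower than in pESC lines. Of 15 tested genes that donate electrons to P450s or make and break heme, 6 were higher (40%) and 1 lower (6.67%) in pXEN than in nESC lines, and 6 were higher (40%) and 0 lower than in pESC lines. CYB5A, cytochrome b5, had 144 to 225 FPKM in pXEN, 35.4 to 42.5 in nESC and 67.2 to 85.5 in pESC lines (log2 fold change 2.15 against nESC, adjusted p = 0.000152, and 1.19 against pESC, adjusted p = 0.00309). ALAS1, which starts heme synthesis, was also higher in pXEN than in nESC and pESC lines (1.08 and 0.65). POR itself was not higher in pXEN.

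Of 10 tested genes that make and recycle glutathione or supply its reducing power, 6 were higher (60%) and 1 lower (10%) in pXEN than in nESC lines, and 8 were higher (80%) and 0 lower than in pESC lines. GGT1, which degrades extracellular glutathione, had 1769 to 1974 counts in pXEN lines, 0 and 2 in nESC lines and 20 and 27 in pESC lines. GCLC, the catalytic subunit of the first step of glutathione synthesis, had 30.2 to 43.7 FPKM in pXEN and 15.0 to 17.4 in the ESC lines. GSS, the second step, was lower in pXEN than in nESC and higher than in pESC lines (log2 fold change -0.81 and 0.91).

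NFE2L2, the transcription factor of the antioxidant response that is known to act on NQO1, had 106 to 120 FPKM in pXEN, 34.1 to 38.0 in nESC and 65.4 to 71.2 in pESC lines. It was higher in pXEN than in nESC lines (log2 fold change 1.64) and pESC lines (0.73) and higher in pESC than in nESC lines (0.91). Of 10 tested targets outside the set, 7 were higher (70%) and 0 lower in pXEN against each ESC type, and 3 were higher (30%) and 1 lower (10%) in pESC than in nESC lines, against 19.0% and 13.3% of all genes. TXNRD1, thioredoxin reductase, had 186 to 240 FPKM in pXEN and 46.5 to 48.8 in the ESC lines, and ME1, malic enzyme, 31.5 to 52.5 and 2.31 to 3.87. The list shares genes with the glutathione list, GCLC, GCLM and PGD among them.

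Of 17 tested sensors and regulators, NFE2L2 among them, 12 were higher (70.6%) and 0 lower in pXEN than in nESC lines, and 12 were higher (70.6%) and 1, BACH1, lower (5.88%) than in pESC lines. Among those higher in both are the liver and endoderm factors HNF4A, FOXA1, FOXA2, FOXA3 and CEBPA. The nuclear receptors of drugs, fatty acids and bile acids on the list gave too few reads to be tested: NR1I2 had at most 3 and PPARA at most 4 counts in a library, and NR1H4 had 42 counts in pXEN line 2 and 0 in the other libraries. NR0B2, a corepressor, had at most 7 counts. HNF4A, which is also on the endoderm marker list, had 11514 to 13964 counts in pXEN and at most 13 in ESC lines.

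The list on cofactor supply for glucuronide and sulfate transfer also holds TPST1 and TPST2, which use the sulfate donor rather than supply it. Of its 8 tested genes, UGP2, which makes UDP-glucose, TPST1 and TPST2 were higher and BPNT1 and SLC35B3 lower in pXEN than in nESC lines, and UGP2 and TPST1 were higher and SLC35B3 lower than in pESC lines. UGDH, which makes UDP-glucuronic acid, was at 39.3 to 75.0 FPKM in the 7 libraries and was not called between pXEN and either ESC type. Among 7 export transporters 3 were higher (42.9%) and 1 lower (14.3%) against nESC lines and 1 was higher and 1 lower (14.3% each) against pESC lines. ABCC2, which exports conjugates, had 35, 143 and 20 counts in pXEN and 3 to 5 in the ESC lines, while ABCC3 was highest in pESC lines, at 536 and 554 counts against 81 to 159 in pXEN and 41 to 43 in nESC lines. Of 7 uptake transporters, 3 were higher (42.9%) and 2 lower (28.6%) against nESC lines and 2 were higher and 2 lower (28.6% each) against pESC lines.

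Other enzymes of oxidation and hydrolysis were split by direction: of 18 tested, 4 were higher (22.2%) and 5 lower (27.8%) in pXEN than in nESC lines, and 7 were higher and 7 lower (38.9% each) than in pESC lines. MAOB, a monoamine oxidase, had 19.3 to 19.9 FPKM in pXEN, 2.15 to 2.76 in nESC and 0.955 to 0.972 in pESC lines. Its paralogue MAOA was highest in pESC lines, at 26.0 and 27.1 FPKM against 1.80 to 3.28 in the others, and ALDH3A1, an aldehyde dehydrogenase, had 989 and 1209 counts in pESC lines and 6 to 23 elsewhere. Of 7 other conjugation enzymes, SULT1C4 included, 3 were higher and 3 lower (42.9% each) against nESC lines and 2 were higher (28.6%) and 3 lower (42.9%) against pESC lines. TPMT, a thiopurine methyltransferase, had 2.80 to 6.15 FPKM in pXEN and 27.4 to 31.4 in the ESC lines.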

How the data were processed

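The authors deposited a table of raw counts per gene and a table of FPKM for the 7 libraries. The submitters' processing notes name HISAT2 2.0.5, featureCounts 1.5.0-p3, edgeR 3.22.5 and build Sscrofa10.2, without roles. Libraries were directional, but the strand setting of the counting is not given in the sources used here. The deposited FPKM values equal the counts divided by gene length and by a library total 0.913 to 1.08 times the summed counts. They were used for levels only. Reads of near-identical genes and of mouse feeder cells were not separated here.

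Counts were tested in edgeR 4.0.16 (glmQLFit, TMM, filterByExpr, R 4.3.3) in 1 model of 7 libraries with cell type as the only term. Benjamini-Hochberg adjustment ran over 17447 genes, at 0.05. The script was tested on simulated data. Lower bounds of folds set a group at 0 to 3 counts per library; ratios carry exact 95% intervals for counting error only. Each library is a separate line. Alternatives were other scalings, DESeq2 1.42.0, limma 3.58.1 on log2(FPKM + 0.1) or log2(FPKM + 1), other filters, a replicate block, fits of 2 types and leaving out each library.

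Members and gene lists were chosen with earlier results of these data known. Tested rows were described by library if their mean reached 10 FPKM in a type, if called in 2 comparisons or if among the 5 largest fold changes in either direction. No sequences were used here. Some genes of the lists are not reported here by name.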

Additional observations from a re-analysis of the deposited data

How the results depend on the processing

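Of the 41 calls on tested enzyme genes, 28 held under each alternative run and 13 were lost under at least 1, and none changed direction. Without a filter, limma on log2(FPKM + 0.1) called 8 of 47 rows higher in pXEN than in nESC lines. The main fit called 5 of 27, and edgeR without a filter called 5 of the same 47. The shares of all genes called higher in these fits were 21.8%, 28.3% and 21.2%. Leaving out 1 library at a time gave 9 to 15 called rows in pXEN against nESC lines (5 to 7 higher, 4 to 9 lower), 11 to 17 in pXEN against pESC lines (3 to 5 higher, 8 to 12 lower) and 9 to 20 in pESC against nESC lines (6 to 14 higher, 3 to 6 lower). The share of all genes called moved with these, from 39.6% to 60%, 30.2% to 55.4% and 16.2% to 43.8%. The lowest total of the last, 9, came without nESC line 1 or either pESC line, and the 14 higher without pXEN line 2; the 3 higher in pXEN than in pESC lines came without pESC line 2. Deviations of lines with the same replicate number were hardly correlated (-0.00892 to 0.0442). With 2 lines in each ESC type these deviations mirror each other, so the correlations cannot decide whether lines were paired. A fit with the replicate number as a block called 9, 14 and 13 rows, and 47.4%, 40.1% and 28.9% of all genes. Upper-quartile scaling and library totals moved the median of all genes in pXEN against nESC lines by -0.17 and -0.19, and both then called AKR1B1 and POR lower in pXEN; with library totals, 3446 genes were higher and 5405 lower in pXEN than in pESC lines, against 4168 and 4261. The cause of these shifts was not tested. Calls on rows left out by the filter rest on 11 counts or fewer in a library.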

Other observations

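The table also lists 67 rows without a gene symbol whose description opens with a CYP, UGT, GST or SULT protein name, and 28 of them passed 3 counts in a library. They are outside the 53 rows chosen by symbol, were picked here after their values were seen, and are given as counts with no test. A further row without a symbol, described as dihydrodiol dehydrogenase 3, the description that both AKR1C3 rows carry, had 435 and 519 counts in the pESC lines and 0 to 2 in the other libraries. The highest UGT counts lay in a row described as UDP-glucuronosyltransferase 2C1, with 101 to 121 in pXEN, 108 and 120 in nESC and 148 and 171 in pESC lines. The 2 UGT genes that carry symbols had 1 count or fewer in each library.

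Rows of the CYP2C and CYP2J subfamilies without a symbol differed in pattern from each other. A row described as cytochrome P450 2C31 had 62 and 115 counts in nESC lines, 4 to 16 in pXEN and 10 and 15 in pESC lines. A row described as cytochrome P450 2C18 had 58, 73 and 48 counts in pXEN lines, 1 and 3 in nESC and 11 and 3 in pESC lines. Of 4 rows described as cytochrome P450 2J2, the highest had 37, 56 and 55 counts in pXEN lines, 5 and 13 in nESC and 60 and 81 in pESC lines, and the next 14, 17 and 18, 0 and 0, and 41 and 31; the gene with the symbol CYP2J2 had 36, 26 and 19, 39 and 57, and 63 and 53. A second row described as glutathione S-transferase A4 had 101 counts in pXEN line 2 and 0 to 8 in the other 6 libraries, next to the 84.9 FPKM of GSTA4 in that line.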
